A study of Mus musculus with 9 samples.

Results

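The data concern 10 genes by which tissue senses oxygen and grows or stabilises vessels, measured in hearts of C57BL/6 mice. The genes were chosen by name: the ligands Vegfa, Vegfb, Vegfc and Angpt1, the receptors Kdr, Flt1, Nrp1 and Tek, and the hypoxia factors Hif1a and Epas1. All 10 were present among the 13646 genes shared by the deposited tables, of 14073 genes in the table of the TAC+PUE and TAC groups and 13853 in the table of the TAC and sham groups. All 10 also passed the filter on low values in every comparison. RNA was sequenced from heart tissue of 3 male mice per group, labelled 10 weeks old, at 21 days after surgery. The TAC+PUE group had transverse aortic constriction (TAC), which narrows the aortic arch and so overloads the left ventricle with pressure, and daily intraperitoneal puerarin, an isoflavone from kudzu root, at 100 mg/kg, begun 3 days before surgery. The TAC group had the constriction with saline injections. The sham group had the operation without constriction, and saline. No mouse carried an engineered allele according to the labels, and each library is 1 mouse.

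Vascular endothelial growth factors (VEGF) are secreted ligands that bind receptor tyrosine kinases on endothelial cells. VEGF-A acts mainly through VEGFR2, the product of Kdr, while VEGFR1, the product of Flt1, binds VEGF-A and VEGF-B and can act as a trap for ligand. Neuropilin 1, from Nrp1, is a co-receptor. Angiopoietin 1, from Angpt1, is made largely by cells around the vessel and activates the endothelial receptor TIE2, the product of Tek, which steadies mature vessels. The hypoxia-inducible factors HIF-1 alpha (Hif1a) and HIF-2 alpha (Epas1) are degraded when oxygen is plentiful, are stabilised when it is scarce, and pair with ARNT to drive genes that include Vegfa. Their protein level is set mainly by this degradation, so the mRNA levels given here are not a measure of HIF activity.

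Expression was given as FPKM, fragments scaled to transcript length and to the number of mapped fragments. The summed FPKM over the shared genes ranged over 239516 to 251104 in the TAC+PUE group, 187444 to 220567 in the TAC group and 259362 to 287728 in the sham group, and sequencing depth is unknown. Mitochondrially encoded transcripts took 14.2% to 25.98% of this sum in TAC+PUE hearts, 2.81% to 7.04% in TAC hearts and 31.6% to 42.9% in sham hearts. Gm26917 and Gm42418, transcripts that carry ribosomal RNA sequence, accounted for 1.11% to 2.52% in TAC+PUE hearts, 4.81% to 7.50% in TAC hearts and 0.520% to 1.11% in sham hearts. Because these classes and the summed FPKM differ between the groups, the genes are also described under other scalings of the libraries below. Wherever a class is said to be removed, the remaining values were also rescaled to the same sum in every library. All 18 endothelial markers were detected, and their summed level was 427 to 570 FPKM in TAC+PUE hearts, 346 to 432 FPKM in TAC hearts and 408 to 436 FPKM in sham hearts. Mural cell markers, which mark pericytes and smooth muscle, were all 12 in the tables. They summed to 283 to 389 FPKM in TAC+PUE hearts, 204 to 271 FPKM in TAC hearts and 373 to 385 FPKM in sham hearts. This sum is weighted to its highest members, and the genes in it did not move one way. Rgs5 averaged 120, 68.1 and 179 FPKM in the TAC+PUE, TAC and sham groups, while Notch3 averaged 12.2, 17.4 and 10.9 FPKM. The calls on this list are given below. The 10 cardiomyocyte markers summed to 9178 to 9388 FPKM in TAC+PUE hearts, 11970 to 13055 FPKM in TAC hearts and 8171 to 9142 FPKM in sham hearts, so the labelled tissue carries its defining transcripts. Myl7, an atrial myosin light chain, ranged over 27.4 to 708 FPKM in TAC+PUE hearts, 1.60 to 198 FPKM in TAC hearts and 0.857 to 1.07 FPKM in sham hearts. TAC 3, TAC+PUE 2 and TAC+PUE 3 had at least 100 FPKM of it. Among the 6 atrial markers, Sln was listed at 0 in 1 TAC library, and Bmp10 in 1 TAC library and 1 TAC+PUE library. Markers of red blood cells summed to 1528 to 6070 FPKM in TAC+PUE hearts, 5278 to 7697 FPKM in TAC hearts and 1056 to 1283 FPKM in sham hearts. The part of these differences in the results below was not tested.

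The 10 genes covered a wide range of levels, and the order was much alike in the 3 groups. Vegfb and Epas1 stood at the top, with means of 117 and 97.4 FPKM in TAC+PUE hearts, 136 and 94.3 FPKM in TAC hearts, and 96.3 and 102 FPKM in sham hearts. Vegfa and Kdr followed, at 35.4 and 31.6 FPKM in TAC+PUE hearts, 42.7 and 35.2 FPKM in TAC hearts, and 33.0 and 35.8 FPKM in sham hearts. Nrp1, Tek, Flt1 and Hif1a came next in this order of means in every group. Vegfc, a lymphatic growth factor, and Angpt1 were lowest, and Angpt1 was the lowest of all in the TAC group only, below Vegfc. Not every step of the order exceeded the spread between mice. The libraries overlapped for Epas1 and Vegfb in sham hearts, for Nrp1 with Tek in TAC+PUE and TAC hearts, for Tek with Flt1 and Vegfc with Angpt1 in TAC hearts, for Vegfa with Kdr in TAC+PUE hearts, and for Flt1 with Hif1a in TAC+PUE and sham hearts.

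**Figure D1:**
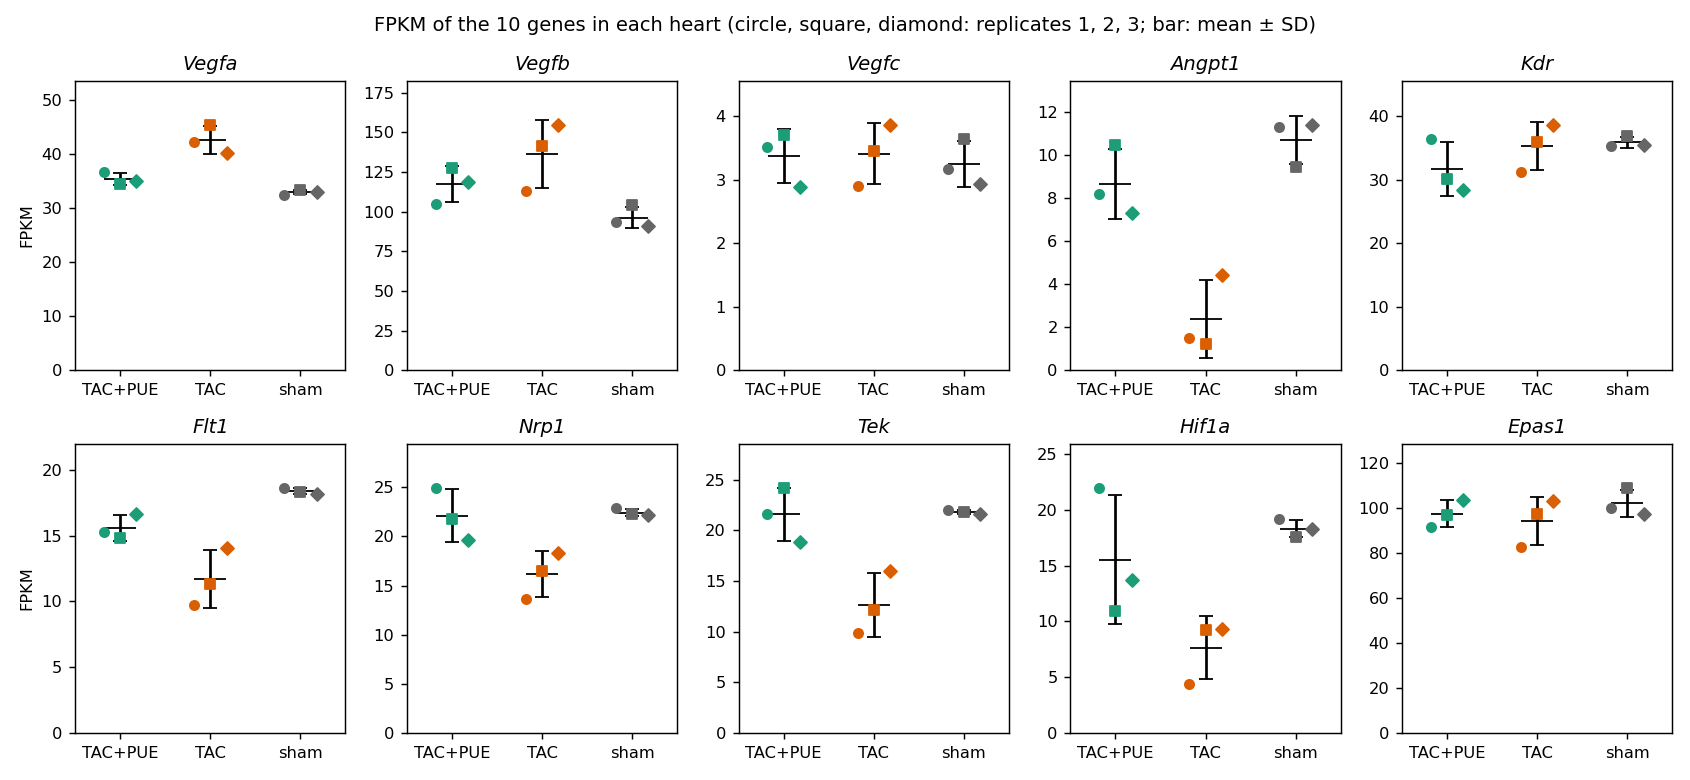
FPKM of each of the 10 genes in every library (circle, square and diamond for mice 1, 2 and 3; bars are the group mean ± SD), with the TAC+PUE group at the left, the TAC group in the middle and the sham group at the right, on a linear axis per gene that starts at 0. Angpt1 lay between 1.20 and 4.45 FPKM in TAC hearts, below the 7.32 to 10.5 FPKM of TAC+PUE hearts and the 9.44 to 11.4 FPKM of sham hearts, while Vegfa was highest in TAC hearts.

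The first comparison asked what pressure overload does to these genes, TAC against sham. Angpt1, Hif1a, Tek, Flt1 and Nrp1 fell in the TAC group, Vegfa and Vegfb rose, and Vegfc, Kdr and Epas1 did not pass the test. In limma, a linear model fitted across all genes, 2 of the 10 genes passed an adjusted p of 0.05 as higher and 5 as lower. The background is broad: 63.0% of the 11687 genes tested were called, 25.3% higher and 37.7% lower, so 7 called genes of 10 is near the background. With the libraries of at least 100 FPKM of Myl7 left out, 7 were called in TAC against sham, where 2 TAC mice remain. That setting leaves, in TAC+PUE against TAC, 1 mouse against 2, and its 3 calls assume that the lone mouse varies like the others. The median log2 fold change was -0.29 over the 10 genes and -0.12 over all genes tested. For 7 of the 10 genes the TAC and sham libraries did not overlap, 2 higher and 5 lower, against 70.3% of all genes tested, 28.4% higher and 41.9% lower. In bulk tissue, fewer cells of a type and less RNA per cell cannot be told apart.

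The second comparison asked what puerarin adds in the overloaded heart, TAC+PUE against TAC. Angpt1, Hif1a and Tek were higher in TAC+PUE hearts, no gene of the 10 passed as lower, and the other 7 did not pass the test. Among all 11788 genes tested 38.4% were called, 32.9% higher and 5.45% lower, so 3 of 10 higher is near the background. The median log2 fold change was 0.22 over the 10 genes and 0.24 over all genes. The groups did not overlap for 6 of the 10 genes, 5 higher and Vegfa lower, against 53.5% of all genes, 43.3% higher and 10.1% lower. These libraries share the TAC mice with the first comparison, so a deviation of those 3 mice moves both comparisons in opposite directions, and the values are given side by side without a test of their relation.

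**Figure D2:**
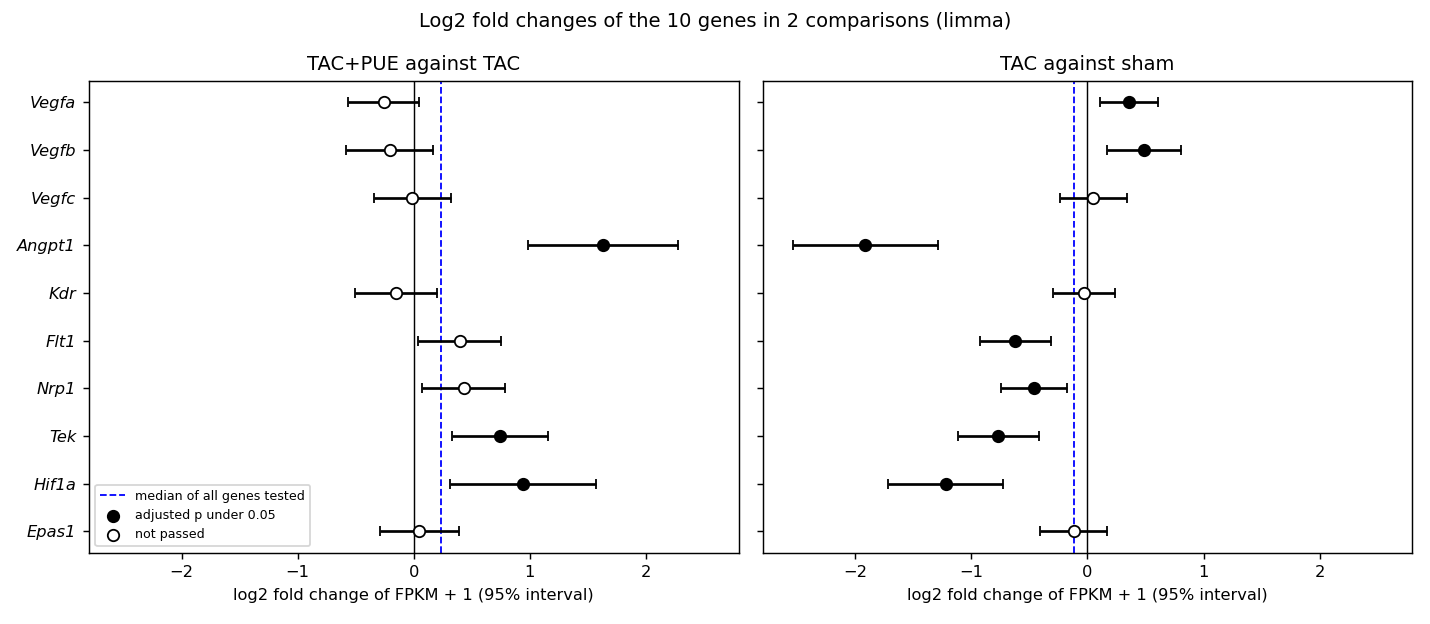
log2 fold change of FPKM + 1 for each of the 10 genes in TAC+PUE against TAC (left) and TAC against sham (right), with 95% confidence intervals from limma; filled points have an adjusted p under 0.05 and the dashed line is the median of all genes tested. Angpt1 had the most negative value of the 10 in TAC against sham, -1.91, and the most positive in TAC+PUE against TAC, 1.63.

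Among the ligands, Angpt1 (ENSMUSG00000022309.9) changed most in both comparisons. It had 8.21, 10.5 and 7.32 FPKM in TAC+PUE hearts, against 1.48, 1.20 and 4.45 FPKM in TAC hearts, and 11.3, 9.44 and 11.4 FPKM in sham hearts. Every TAC library was below every library of the other groups, and TAC 3 was the highest of the TAC mice. Its log2 fold change was -1.91 ± 0.28 (SE) in TAC against sham, with an adjusted p of 0.000275 in limma, and 1.63 ± 0.29 in TAC+PUE against TAC, with an adjusted p of 0.0039. The fall in TAC lay at the 0.351 percentile of the fold changes of all genes tested, and the higher level in TAC+PUE hearts at the 99.7 percentile. Angpt1 was called in each of the 16 alternative settings that could test it, in both comparisons. A fold change of FPKM + 1 understates a change at such low levels: with a pseudocount of 5 it became -1.12 in TAC against sham and 0.91 in TAC+PUE against TAC.

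Vegfa (ENSMUSG00000023951.17), the main driver of vessel growth, had 36.7, 34.5 and 35.1 FPKM in TAC+PUE hearts, 42.3, 45.4 and 40.3 FPKM in TAC hearts, and 32.5, 33.4 and 33.1 FPKM in sham hearts. The TAC libraries lay above all others, and the groups overlapped in no pair. Its log2 fold change of 0.36 ± 0.11 in TAC against sham passed, with an adjusted p of 0.017 in limma, and the difference of -0.26 ± 0.14 in TAC+PUE against TAC did not pass, with an adjusted p of 0.16. The call in TAC against sham is close to the threshold: it was lost without sham 1, sham 3 or TAC 2, and with ribosomal-like and mitochondrial transcripts removed. Over the 17 alternatives its adjusted p in limma ranged over 0.000285 to 0.094.

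Vegfb (ENSMUSG00000024962.13), a ligand of VEGFR1 linked to fatty acid uptake and coronary vessels, had 105, 128 and 119 FPKM in TAC+PUE hearts, 113, 142 and 155 FPKM in TAC hearts, and 93.8, 104 and 91.0 FPKM in sham hearts. The TAC libraries were above the sham libraries and overlapped with TAC+PUE. It rose by 0.49 ± 0.15 in TAC against sham, with an adjusted p of 0.014 in limma, and differed by -0.21 ± 0.17 in TAC+PUE against TAC, with an adjusted p of 0.36. The first call was lost without sham 1 or sham 3, at log2 fold changes of 0.47 and 0.45. Vegfc (ENSMUSG00000031520.6) had 3.52, 3.70 and 2.89 FPKM in TAC+PUE hearts, 2.90, 3.46 and 3.86 FPKM in TAC hearts, and 3.17, 3.64 and 2.93 FPKM in sham hearts, and the 3 groups overlapped throughout.

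Of the receptors, Tek (ENSMUSG00000006386.15) had 21.6, 24.2 and 18.9 FPKM in TAC+PUE hearts, 9.82, 12.1 and 16.0 FPKM in TAC hearts, and 22.0, 21.8 and 21.6 FPKM in sham hearts. All 3 TAC libraries were below all others, and the sham mice differed little among themselves. Its log2 fold change was -0.77 ± 0.16 for TAC over sham, with an adjusted p of 0.0019 in limma, and 0.74 ± 0.19 for TAC+PUE over TAC, with an adjusted p of 0.011. Flt1 (ENSMUSG00000029648.13) had 15.3, 14.8 and 16.7 FPKM in TAC+PUE hearts, 9.75, 11.3 and 14.1 FPKM in TAC hearts, and 18.6, 18.3 and 18.2 FPKM in sham hearts, with no overlap in any pair of groups. It fell by 0.62 ± 0.14 in TAC against sham, with an adjusted p of 0.0028 in limma, and the difference of 0.40 ± 0.16 in TAC+PUE against TAC had an adjusted p of 0.074 and did not pass.

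Nrp1 (ENSMUSG00000025810.9) had 24.9, 21.8 and 19.6 FPKM in TAC+PUE hearts, 13.7, 16.5 and 18.3 FPKM in TAC hearts, and 22.9, 22.2 and 22.2 FPKM in sham hearts. Each TAC library was lower than each library of the other groups. It fell by 0.46 ± 0.13 in TAC against sham, with an adjusted p of 0.010 in limma, and the difference of 0.43 ± 0.16 in TAC+PUE against TAC, with an adjusted p of 0.055, did not pass. Without TAC 3, the adjusted p of Flt1 and Nrp1 in TAC+PUE against TAC was under the threshold, at log2 fold changes of 0.53 and 0.52, and Nrp1 also passed with ribosomal-like and mitochondrial transcripts removed, at 0.39. Kdr (ENSMUSG00000062960.10), the main signalling receptor for VEGF-A, had 36.4, 30.2 and 28.4 FPKM in TAC+PUE hearts, 31.2, 36.0 and 38.6 FPKM in TAC hearts, and 35.3, 36.8 and 35.4 FPKM in sham hearts. Its libraries overlapped between all groups, with a difference of -0.03 in TAC against sham and a 95% confidence interval of -0.30 to 0.24.

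Of the hypoxia factors, Hif1a (ENSMUSG00000021109.13) had 22.0, 10.9 and 13.7 FPKM in TAC+PUE hearts, 4.37, 9.27 and 9.32 FPKM in TAC hearts, and 19.2, 17.6 and 18.3 FPKM in sham hearts. All TAC libraries were below all others, and TAC+PUE 1 was above the other mice of its group and above all sham mice. Hif1a fell by 1.22 ± 0.22 in TAC against sham, with an adjusted p of 0.000919 in limma, and was called in all 17 alternatives, the smallest change being -0.76 with ribosomal-like transcripts removed. It was higher by 0.94 ± 0.29 in TAC+PUE against TAC, with an adjusted p of 0.025 in limma. That call was lost without TAC+PUE 1, at 0.68, without TAC 1, at 0.63, with median-ratio scaling, at 0.73, and with ribosomal-like transcripts removed, at 0.66, and the adjusted p over the 17 alternatives ranged up to 0.115. Leaving out the libraries with at least 100 FPKM of Myl7 gave 1.63, with 1 TAC+PUE mouse left. Epas1 (ENSMUSG00000024140.9), which is prominent in endothelial cells, had 91.6, 97.0 and 104 FPKM in TAC+PUE hearts, 82.5, 97.4 and 103 FPKM in TAC hearts, and 99.9, 109 and 97.5 FPKM in sham hearts, and its groups overlapped in every comparison.

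The promoters of the genes that fell in TAC are shown here for Flt1, Nrp1, Tek and Hif1a, since HIF binds the core ACGTG or GCGTG. Each window runs from 250 bases before to 50 bases after the transcription start in RefSeq, build GRCm38.p6, on the strand of the gene. Capitals mark ACGTG and GCGTG on either strand (CACGT and CACGC read on the other strand). Of the 10 genes 8 had a window, and Angpt1 and Epas1 had none.
Flt1, chr5:147725962-147726261, minus strand: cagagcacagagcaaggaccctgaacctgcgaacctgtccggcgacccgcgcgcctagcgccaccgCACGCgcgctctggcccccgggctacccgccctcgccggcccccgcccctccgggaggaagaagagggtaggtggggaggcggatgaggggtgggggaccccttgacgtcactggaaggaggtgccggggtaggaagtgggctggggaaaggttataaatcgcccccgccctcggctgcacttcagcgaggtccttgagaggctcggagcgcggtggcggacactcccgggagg
Nrp1, chr8:128358823-128359122, plus strand: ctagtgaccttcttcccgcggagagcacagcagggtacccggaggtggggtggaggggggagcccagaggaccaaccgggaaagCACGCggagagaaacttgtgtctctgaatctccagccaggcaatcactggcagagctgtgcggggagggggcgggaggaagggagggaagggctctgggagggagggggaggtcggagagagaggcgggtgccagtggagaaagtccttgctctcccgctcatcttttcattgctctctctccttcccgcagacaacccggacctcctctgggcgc
Tek, chr4:94739039-94739338, plus strand: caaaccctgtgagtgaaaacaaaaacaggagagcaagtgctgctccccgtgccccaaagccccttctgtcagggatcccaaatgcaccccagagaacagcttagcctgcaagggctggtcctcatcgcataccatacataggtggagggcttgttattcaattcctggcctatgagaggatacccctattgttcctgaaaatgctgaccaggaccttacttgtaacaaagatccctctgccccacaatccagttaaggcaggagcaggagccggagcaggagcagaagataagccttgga
Hif1a, chr12:73907617-73907916, plus strand: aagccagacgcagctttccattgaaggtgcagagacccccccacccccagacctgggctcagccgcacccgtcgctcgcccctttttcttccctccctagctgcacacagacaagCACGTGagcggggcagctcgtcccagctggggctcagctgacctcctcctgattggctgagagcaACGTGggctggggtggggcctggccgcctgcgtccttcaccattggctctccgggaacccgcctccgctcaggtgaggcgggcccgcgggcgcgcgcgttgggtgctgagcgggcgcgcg
Flt1 and Nrp1 held 1 match each, Tek held none, and Hif1a held 3, of which the 2 at the palindrome CACGTG are the overlapping strands of 1 site. Genes that did not fall in TAC had matches too. The windows of Vegfb and Kdr held 2 each, Vegfa had 1 window with 2 and 1 with none, and Vegfc had none. Of the 9 windows of these genes, 6, or 66.7%, held a match. Of all 32851 windows of this length, 14380, or 43.8%, held at least 1 match. A match is therefore common, and its absence says only that these letters are not in the window.

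Ratios between genes within 1 library do not depend on how that library was scaled. The log2 ratio of Flt1 to Kdr averaged -1.02 ± 0.24 in TAC+PUE hearts, -1.60 ± 0.13 in TAC hearts and -0.96 ± 0.04 in sham hearts (SD, n = 3 each). That of Nrp1 to Kdr averaged -0.51 ± 0.04 in TAC+PUE hearts, -1.13 ± 0.06 in TAC hearts and -0.68 ± 0.05 in sham hearts. Both ratios were lower in each TAC library than in each library of the other groups. The log2 ratio of Angpt1 to Tek averaged -1.32 ± 0.10 in TAC+PUE hearts, -2.64 ± 0.75 in TAC hearts and -1.03 ± 0.16 in sham hearts. That of Hif1a to Epas1 averaged -2.71 ± 0.58 in TAC+PUE hearts, -3.70 ± 0.47 in TAC hearts and -2.48 ± 0.14 in sham hearts. With 3 mice against 3, the exact two-sided permutation test cannot give a p below 0.10. TAC against sham reached that smallest p for 10 of the 11 ratios, and TAC+PUE against TAC and TAC+PUE against sham for 6 each, with no overlap between the groups, and over all 33 tests of 11 ratios in 3 comparisons an exact p of 0.1 adjusts to 0.15. Vegfa to Vegfb was the ratio that did not reach it in TAC against sham, with a difference of -0.12 ± 0.16 and an exact permutation p of 0.6. Several of the ratios share a divisor, so they are not independent, and no share over other gene pairs was computed. Among single genes, 70.3% did not overlap in TAC against sham, 53.5% in TAC+PUE against TAC and 42.8% in TAC+PUE against sham.

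**Figure D3:**
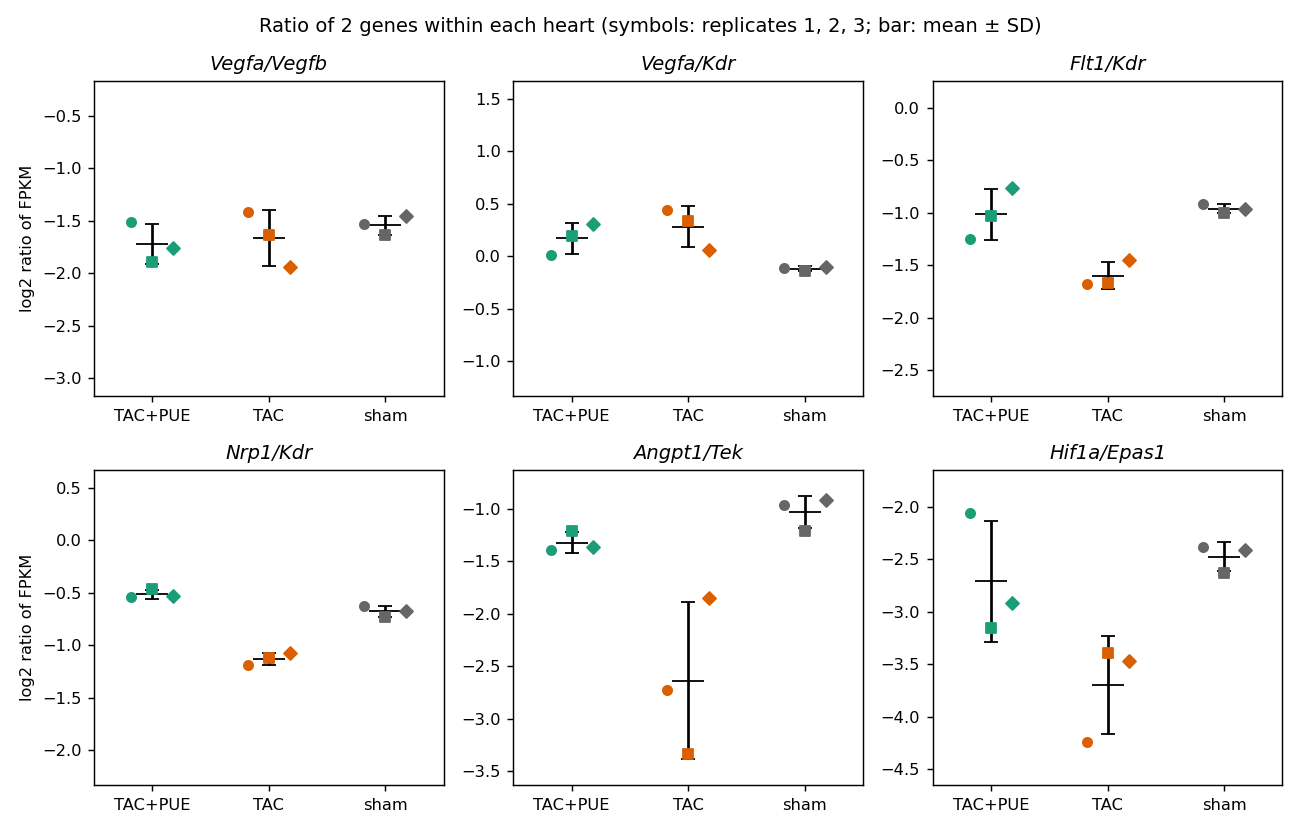
log2 ratio of 2 genes within each library, for the TAC+PUE, TAC and sham groups from left to right (circle, square and diamond for mice 1, 2 and 3; bars are the group mean ± SD). The TAC libraries sit lowest for Flt1 to Kdr and Nrp1 to Kdr, with group means of -1.60 and -1.13.

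Tek, Flt1, Nrp1, Kdr and Epas1 were also set against the geometric mean of 7 endothelial markers, Pecam1, Cdh5, Emcn, Cldn5, Eng, Egfl7 and Esam. In TAC against sham this log2 ratio was lower by 0.92 for Tek, 0.77 for Flt1, 0.59 for Nrp1, 0.22 for Epas1 and 0.13 for Kdr, with no overlap between the groups in any of the 5. For TAC+PUE over TAC it was 0.60 higher for Tek and 0.35 lower for Kdr, both with an exact permutation p of 0.1. TAC+PUE 2 was the lowest for Kdr, at -0.088, and without it the difference was -0.17. For Flt1, Nrp1 and Epas1 the differences were 0.24, 0.27 and -0.14, with exact permutation p of 0.3, 0.3 and 0.6. For TAC+PUE over sham, Tek, Flt1, Kdr and Epas1 differed by -0.32, -0.53, -0.48 and -0.36, each with an exact permutation p of 0.1, and Nrp1 by -0.32 with an exact permutation p of 0.2. The endothelial markers themselves did not move one way in TAC: Pecam1, Cdh5 and Emcn fell and Cldn5, Eng, Egfl7 and Esam rose, so the divisor averages opposite changes.

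TAC+PUE hearts were then set against sham hearts, in a joint fit of all 9 libraries. None of the 10 genes passed limma at an adjusted p under 0.05, and 0 had an unadjusted p under 0.05. Across all 12222 genes tested, 13.2% were called, 11.8% higher and 1.46% lower. The groups did not overlap for 3 of the 10 genes, Vegfa, Vegfb and Flt1, against 42.8% of all genes tested, 32.9% higher and 9.94% lower. Vegfa and Vegfb were higher in TAC+PUE hearts, by 0.10 and 0.28 on the log2 scale, and Flt1 was lower, with a difference of -0.23. For Angpt1 the difference was -0.29, with a 95% confidence interval of -0.90 to 0.33, and for Hif1a -0.28, with an interval of -0.87 to 0.31. Such intervals leave room for sizeable differences, so they do not show that the groups are alike. Of the lists, 4 of 17 other VEGF and angiopoietin genes were higher: Thbs1 by 1.91, Nos3, endothelial nitric oxide synthase, by 0.68, Vegfd by 0.64 and Flt4, which encodes VEGFR3, by 0.43. Vegfd passed the filter on low values only through the TAC+PUE libraries. The 4 became 2 without TAC+PUE 2, TAC+PUE 3 or sham 3, and 1 without sham 1 or without the libraries of high Myl7. None of 13 oxygen sensing genes passed in that fit, and of 25 HIF targets 2 were higher and 1 lower. Cell type markers were also called there. Higher were 6 of 10 macrophage, 4 of 9 fibroblast and 4 of 18 endothelial markers. So were 4 of 6 atrial and 4 of 6 red blood cell markers, and 3 of 7 lymphatic endothelial entries (Flt4 and both of Ccl21a). The atrial Sln, Myl4 and Myl7 had 0.0911 to 0.131, 0.296 to 0.452 and 0.857 to 1.07 FPKM in sham hearts. They passed the filter on low values only with libraries of the groups where they were high, so their calls support nothing. Mural cell markers gave 2 higher and 2 lower of 11, and none of 10 cardiomyocyte markers passed. Flt4 is also on the lymphatic list, and the part of these cells in the result was not tested.

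The direction of several of these genes depends on how the libraries are scaled. One setting removed ribosomal-like transcripts and rescaled the rest to an equal sum per library. The all-gene median of the fold change in TAC against sham then moved to 0.30, against -0.12 on the FPKM as deposited. The removal and the equal sum were not run apart, so the part of each in this move was not tested. Under this setting Angpt1 and Hif1a still fell, at -1.53 and -0.76. Tek, Flt1 and Nrp1 were no longer called, at -0.29, -0.15 and 0.02, and Kdr, Epas1 and Vegfc were called higher, at 0.46, 0.38 and 0.44. When mitochondrially encoded transcripts were removed as well, the median was -0.23, and Angpt1, Hif1a, Tek, Flt1, Nrp1 and Epas1 were called lower and Vegfa, at 0.23, was not called. Angpt1 in TAC+PUE against TAC was called higher under all 4 scalings. In that comparison Vegfa, Vegfb and Kdr were called lower under median-ratio scaling, at -0.50, -0.45 and -0.39, and with ribosomal-like transcripts removed, at -0.57, -0.53 and -0.46. Tek was called under 3 of the 4 scalings, with 0.44 and an adjusted p of 0.051 in limma when ribosomal-like transcripts were removed.

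**Figure D4:**
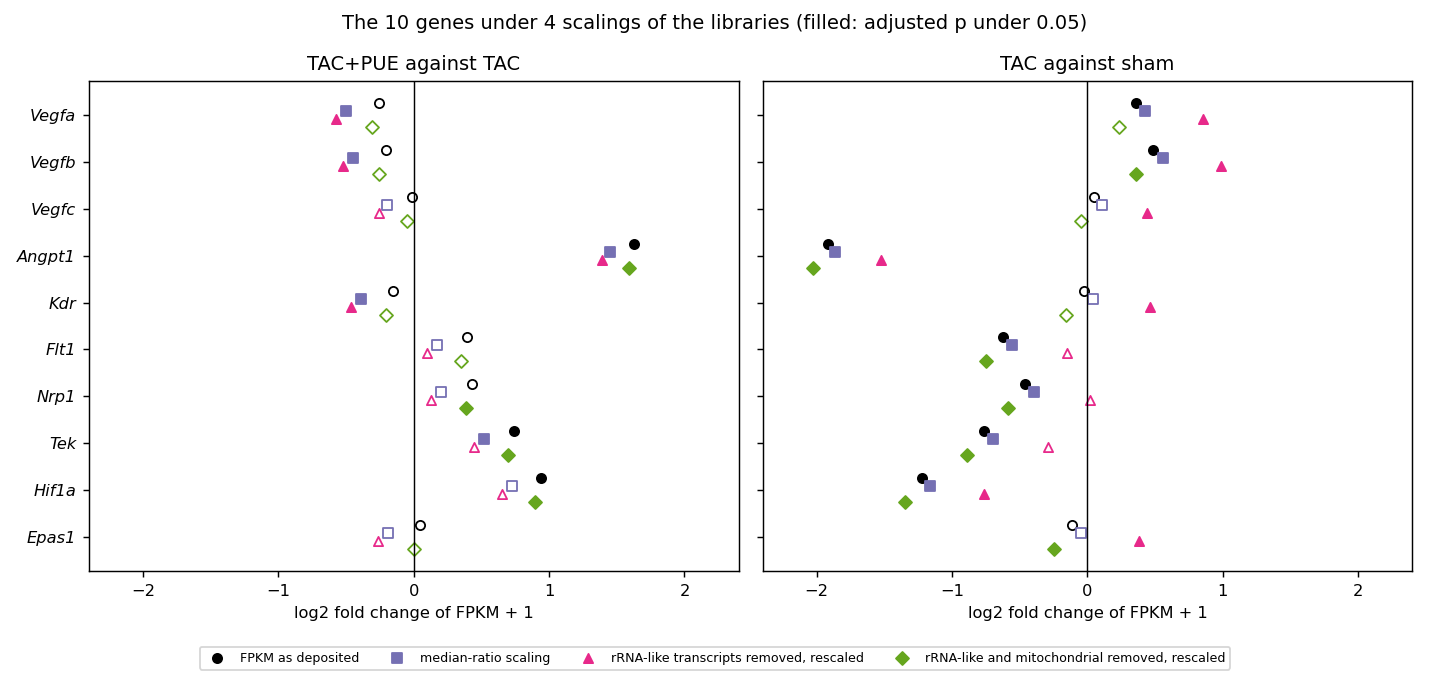
log2 fold change of the 10 genes under 4 scalings of the libraries, for TAC+PUE against TAC (left) and TAC against sham (right); filled symbols have an adjusted p under 0.05 in limma. Angpt1 is filled and on the same side of 0 under every scaling. Kdr changes side in TAC against sham, with -0.03 on the FPKM as deposited. It has 0.46 with ribosomal-like transcripts removed and the rest rescaled to an equal sum.

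The wider pathway was described by lists. Of 16 tested other genes of VEGF and angiopoietin signalling, 6 rose and 5 fell in TAC against sham. Of all genes, 25.3% were called higher and 37.7% lower there. In TAC+PUE against TAC, 3 of the list passed as higher and 0 as lower, beside 32.9% and 5.45% of all genes. The median log2 fold change of the list was -0.00 in TAC against sham and 0.07 in TAC+PUE against TAC, beside -0.12 and 0.24 over all genes. Thbs1, the antiangiogenic matrix protein thrombospondin 1, rose by 1.51 in TAC, and Vash1, an inhibitor of vessel growth, by 0.77. Angptl4, which inhibits lipoprotein lipase, fell by 1.42 and Ptprb, the phosphatase that acts on TIE2, by 0.88 in TAC against sham. Angptl4 was, in TAC+PUE against TAC, higher by 1.35, Vegfd, a ligand of VEGFR3, by 0.80 and Ptprb by 0.64. Vegfd had 1.75 to 2.24 FPKM in TAC+PUE hearts, 0.448 to 1.02 FPKM in TAC hearts and 0.833 to 0.965 FPKM in sham hearts, so it passed the filter on low values only through the group where it was high, and its calls support nothing. The same holds for Angptl4, which had 2.82 to 5.81 FPKM in TAC+PUE hearts, 0.810 to 1.03 FPKM in TAC hearts and 3.89 to 4.55 FPKM in sham hearts, and for Angpt2 and Pfkfb4 among the other called genes of the pathway and target lists. With ribosomal-like transcripts removed, the counts became 11 higher and 3 lower in TAC against sham, and 4 genes were called lower in TAC+PUE against TAC, as also with median-ratio scaling.

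Of 13 tested genes of oxygen sensing, 2 rose and 7 fell in TAC against sham, with a median of -0.41 beside -0.12 over all genes, of which 25.3% were called higher and 37.7% lower. Of the same 13, 6 were higher and 1 lower in TAC+PUE against TAC, with a median of 0.46 beside 0.24 over all genes, of which 32.9% were called higher and 5.45% lower. Cul2 and Eloc, parts of the VHL ligase that marks HIF for degradation, fell by 1.40 and 1.25 in TAC and were higher by 1.13 and 1.07 in TAC+PUE against TAC. Egln2, a HIF prolyl hydroxylase, moved oppositely: it rose by 1.02 in TAC and was lower by 0.58 in TAC+PUE against TAC, a call lost without TAC+PUE 1, TAC+PUE 3, TAC 1 or TAC 3. Crebbp, a coactivator that HIF recruits, fell by 0.75 in TAC. Rbx1, the ring subunit of the same ligase, and the coactivator Ep300 were higher by 0.72 and 0.71 in TAC+PUE against TAC. Elob, another part of the VHL ligase, rose by 0.36 in TAC, and Vhl, Egln1, Egln3 and Hif1an did not pass there. With ribosomal-like transcripts removed, 6 were called higher and 4 lower in TAC against sham, and 3 lower in TAC+PUE against TAC (2 with median-ratio scaling).

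Among HIF target genes, 2 of 24 rose and 11 fell in TAC against sham, with a median of -0.27 beside -0.12 over all genes. In TAC+PUE against TAC, 9 of 25 were higher and 0 lower, with a median of 0.22 beside 0.24 over all genes. Of all genes, 25.3% were called higher and 37.7% lower in the first comparison. In the second, 32.9% were called higher and 5.45% lower, so 9 of 25 higher is near the background. Bnip3, a mitophagy receptor, fell by 1.47 in TAC and was higher by 1.06 in TAC+PUE against TAC. Angptl4 fell by 1.42 in TAC and Vldlr, a lipoprotein receptor, by 1.14. Angptl4 is on the VEGF and angiopoietin list too. It is counted among the 11 lower and the 9 higher, though its calls support nothing because of the filter. Pdk1, which restrains pyruvate oxidation, was higher by 0.90 in TAC+PUE against TAC. With ribosomal-like transcripts removed, 10 of the HIF targets were called higher and 6 lower in TAC against sham. TAC+PUE hearts then had 5 above and 6 below TAC hearts, and median-ratio scaling also put 5 below. Without the libraries of high Myl7, which leaves 1 TAC+PUE mouse against 2 TAC mice, the 9 became 5.

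**Figure D5:**
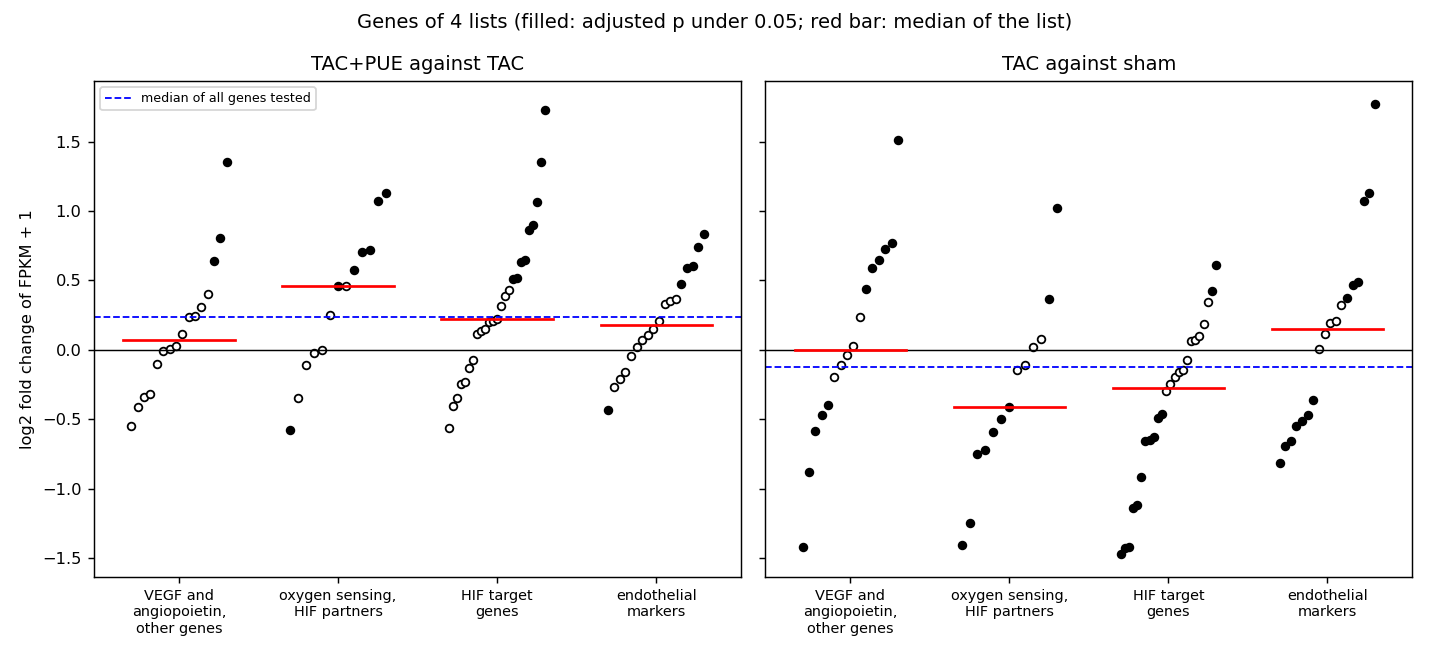
log2 fold change of the genes of each list in TAC+PUE against TAC and in TAC against sham (points are genes, filled where the adjusted p in limma is under 0.05; red bars are list medians and the dashed line the median of all genes tested). The oxygen sensing list has a median of 0.46 and of -0.41, and the endothelial markers one of 0.18 and of 0.15.

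Over all genes, 25.3% were called higher and 37.7% lower in TAC against sham, and 32.9% and 5.45% in TAC+PUE against TAC. For endothelial markers, 6 rose and 7 fell of 18 in TAC against sham, while TAC+PUE hearts had 5 higher and 1 lower than TAC hearts. The 6 became 3 without sham 1 or sham 3, and 11 with 1 lower when ribosomal-like transcripts were removed. The 5 became 2 without TAC+PUE 1, 1 without the libraries of high Myl7, and 1 with 3 lower when ribosomal-like transcripts were removed. Plvap, a marker of fenestrated endothelium, rose by 1.77 in TAC, Egfl7 by 1.13 and Vwf, which carries von Willebrand factor, by 1.07, while Ly6c1 fell by 0.82. Among those higher in TAC+PUE against TAC were Pecam1 by 0.84, Ly6c1 by 0.74, Emcn by 0.60 and Cd34 by 0.59. Mural cell markers gave 5 higher and 4 lower of 11 in TAC against sham, while 1 passed as higher and 2 as lower in TAC+PUE against TAC. Of 9 fibroblast markers, 4 rose and 2 fell in TAC, and 6 of 6 red blood cell markers rose. Among the latter, Slc4a1 had 0.471 to 0.568 FPKM in sham hearts and 2.78 to 6.74 FPKM in TAC hearts. It passed the filter on low values only through the TAC hearts, where it was high, so its calls support nothing. Cardiomyocyte markers gave 5 higher and 3 lower of 10 in TAC against sham, and macrophage markers 5 higher and 2 lower of 10. For TAC+PUE over TAC, 3 fibroblast markers were higher and 2 lower, among them Postn by 1.96, Lum by 1.69 and Dcn by 1.02. Macrophage and cardiomyocyte markers gave 2 higher and 3 lower each there, and red blood cell markers 0 higher and 3 lower. With ribosomal-like transcripts removed, mural cell markers became 7 higher and 2 lower in TAC against sham, while TAC+PUE against TAC gave 1 and 4, and macrophage markers 7 higher and 0 lower in TAC against sham.

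To describe which genes shared a pattern with each member, Pearson correlations of log2 FPKM + 1 were taken over the 9 libraries among 5693 genes with a mean of at least 5 FPKM. The points share the group differences and the scaling of their libraries, so these values are a description. Angpt1 was closest to Tshz1, a zinc finger factor, with r of 0.995, and Tek to Nudt4, with 0.993. Hif1a was closest to Atg12, a gene of autophagy, and Flt1 to Bckdhb, a subunit of the branched-chain keto acid dehydrogenase, with r of 0.992 and 0.997. Vegfa was closest to Actc1, cardiac actin, with r of 0.967. Kdr was closest to Grb14, an adaptor protein, with r of 0.977, and its second nearest was Egln3, an oxygen-sensing hydroxylase, with 0.915. Of 1555 noncoding transcripts in the deposited lists, 500 had a name in the tables used here, and 0 of these bore the name of a member.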

How the data were processed

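Paired-end reads had been mapped by the authors with Hisat2, and StringTie and Ballgown gave the expression values; versions are not given in the sources used here. The build named in the submitters' processing notes is mm9. Gene values were deposited in FPKM in separate tables, 1 with the TAC+PUE and TAC libraries and 1 with the TAC and sham libraries, with identical TAC values in both, and lists of noncoding transcripts that were not used for the tests. The tests had been set for the unit of the methods, TPM, and were run on FPKM with the same pseudocount and filter.

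log2(FPKM + 1) of genes with at least 1 FPKM in at least 3 libraries was fitted with limma 3.58.1 (R 4.3.3), eBayes with trend, two-sided, with Benjamini-Hochberg adjustment over all genes tested and a threshold of 0.05. TAC against sham and TAC+PUE against TAC used their 6 libraries, and TAC+PUE against sham a joint fit of all 9. Depth is unknown: among 890 low genes at most 6 shared 1 ratio between TAC 1 and TAC 2 within 0.1%, so no count test was run. Groups come from the sample labels. Alternatives were other pseudocounts, filters, scalings, a replicate block, leaving out each library, and, chosen after seeing the data, leaving out libraries with at least 100 FPKM of Myl7. Named list genes are the 4 called members of largest absolute fold change per list, of which 1 is not reported here. The members and lists were chosen with earlier results of these data known. The scripts were tested on simulated data. The library kit was stranded, but use of strand in counting is not given, so genes that overlap others are uncertain.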

Additional observations from a re-analysis of the deposited data

How the results depend on the processing

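Over the alternatives, Angpt1 kept its direction and call in TAC against sham and in TAC+PUE against TAC wherever it was tested (a filter at 10 FPKM leaves it out), Hif1a kept them in TAC against sham, and Vegfb, Vegfa, Flt1 and Tek kept their direction in TAC against sham. The number of the 10 genes called in TAC+PUE against TAC was 5 with median-ratio scaling and 5 in the joint fit, against 3, and leaving out 1 library gave 2 to 5. In TAC+PUE against sham, it was 2 with median-ratio scaling, 1 with ribosomal-like transcripts removed and 1 with mitochondrial transcripts removed as well, against 0, and 0 whichever library was left out. The cause of these shifts was not tested. In TAC against sham leaving out 1 library gave 5 to 7 calls.

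Some directions turned, among them that of Nrp1, which was called lower in TAC against sham at -0.46. In TAC against sham, Kdr became 0.040 with median-ratio scaling and 0.46 with ribosomal-like transcripts removed, where Nrp1 became 0.021 and Epas1 0.38, and Vegfc became -0.051 with mitochondrial transcripts removed as well and -0.022 without libraries of high Myl7. Leaving out 1 library gave -0.095 to 0.054 for Kdr and -0.022 to 0.14 for Vegfc. In TAC+PUE against TAC, Epas1 became -0.19, -0.27 and -0.00056 under the same 3 scalings, and without libraries of high Myl7 Vegfc became 0.12 and Kdr 0.12. There, leaving out 1 library gave -0.096 to 0.070 for Vegfc and -0.043 to 0.12 for Epas1. In TAC+PUE against sham, Vegfa became -0.067 with median-ratio scaling and -0.079 with both classes removed, Vegfc -0.090 and -0.10, and with ribosomal-like transcripts removed Nrp1 became 0.15, Tek 0.15 and Epas1 0.12. Without libraries of high Myl7, Kdr became 0.021, Nrp1 0.15 and Hif1a 0.25. Leaving out 1 library gave -0.015 to 0.12 for Vegfc, -0.11 to 0.054 for Nrp1 and -0.11 to 0.066 for Tek.

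Among all genes, the share of calls that were higher in TAC against sham was 40.1%. It was 70.5% with ribosomal-like transcripts removed and the rest rescaled, with 5746 higher and 2410 lower in place of 2955 and 4410. In TAC+PUE against TAC it was 85.8%, against 58.6% with median-ratio scaling and 51.1% with ribosomal-like transcripts removed, and in TAC+PUE against sham 89.0%, against 51.4%, 96.9% and, with both classes removed, 55.0%. Counts over all genes moved by more than 1.5 times elsewhere too: a filter at 10 FPKM gave 1096 higher and 1148 lower in TAC against sham, the lower calls in TAC+PUE against TAC ran from 268 without TAC+PUE 1 to 2201 with ribosomal-like transcripts removed, against 642, its higher calls fell to 793 with the filter at 10 FPKM and 2578 without TAC 1, against 3883, and in TAC+PUE against sham higher calls ran from 357 without sham 3 to 3850 with ribosomal-like transcripts removed, against 1437, and lower calls from 30 without sham 1 to 811 with median-ratio scaling, against 178. Same-numbered libraries 1, 2 and 3 correlated at -0.025, -0.0031 and 0.057 between TAC and sham mice, at -0.28, -0.11 and 0.20 between TAC+PUE and TAC mice, and at 0.19, 0.30 and 0.038 between TAC+PUE and sham mice, so in no comparison was every pair over 0.1, and the numbers were not taken to pair the mice. With a replicate block, 7, 3 and 0 genes of the 10 were called in TAC against sham, TAC+PUE against TAC and TAC+PUE against sham. Depth, which is unknown, limits low genes such as Angpt1 and Vegfc most.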
